A study of Mus musculus with 6 samples.

Results

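The extracellular matrix genes described here encode collagens, laminins, 4 matrix glycoproteins and proteoglycans, proteases of the Adamts and Mmp families, their Timp inhibitors, lysyl oxidase relatives and integrin subunits. They were taken from the deposited values by gene symbol, with the brightest probe standing for each gene that had a probe of 1 symbol, and pseudogenes left out. The rule found 90 genes of the 18972 measured under 1 name: 31 collagens, 6 laminins, 4 glycoproteins and proteoglycans (Fn1, Tnc, Postn and Bgn), 13 Adamts and Adamts-like genes, 17 Mmp genes, 2 Timp genes, 2 lysyl oxidase-like genes, 11 names starting with Itga and 4 starting with Itgb. Each of the 90 had a single probe. Itgb3bp and Itgb1bp2 entered by their names, and encode proteins that bind integrin beta tails, not integrin chains. The other 59 of 149 genes that the RefSeq annotation lists under the rule, among them Col1a1, Dcn and Lum, were not analysed here.

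The samples were NIT-1 cells, a mouse beta cell line derived from an insulinoma of a transgenic NOD mouse in which the insulin promoter drives a viral T antigen. Control cells were kept in culture medium and treated cells received 4 µmol/L cadmium sulphate for 24 h, in both cases after 24 h in plates, with 3 arrays of total RNA per group. The labels call the 3 arrays of a group biological replicates without saying whether they came from separate passages, so the p-values rest on the spread among these cultures alone. Values are log2 signals, averages carry the SD of the 3 arrays of a group, and a change is cadmium minus control.

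Collagens form triple helices, as fibrils in connective tissue or as the network of the basement membrane. Laminins are trimers of an alpha, a beta and a gamma chain that organise that membrane, and integrins are pairs of an alpha and a beta chain through which cells hold on to both. Islet beta cells lie against the basement membrane of capillaries, and they attach to its laminins through integrins that contain the beta chain Itgb1. Mmp and Adamts enzymes cut matrix proteins outside the cell, Timp proteins block Mmp enzymes, and lysyl oxidases cross-link collagen and elastin.

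To show the sequence in front of members that changed, the 150 bases before the annotated start are printed for the collagen gene Col3a1, the tenascin gene Tnc, the integrin gene Itgav and the protease gene Mmp3, from RefSeq on assembly GRCm38.p6, 5′ to 3′ on the gene's strand. They lie at chr1:45311388-45311537 (plus strand), chr4:64047016-64047165 (minus strand), chr2:83724247-83724396 (plus strand) and chr9:7445672-7445821 (plus strand). Capitals mark the TATA box letters TATAAA in Col3a1 and Tnc, at bases -117 to -112 and -126 to -121 from the start. They mark both copies of the metal response element core in Itgav, the first of them on the opposite strand. In Mmp3 they mark an AP-1 site at -46 to -40, followed by TATAAA at -7 to -2. Whether these TATAAA matches serve as TATA boxes was not tested.
Col3a1: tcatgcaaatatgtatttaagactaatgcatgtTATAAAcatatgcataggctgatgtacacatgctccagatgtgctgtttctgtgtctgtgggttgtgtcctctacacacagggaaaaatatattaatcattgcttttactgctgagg
Tnc: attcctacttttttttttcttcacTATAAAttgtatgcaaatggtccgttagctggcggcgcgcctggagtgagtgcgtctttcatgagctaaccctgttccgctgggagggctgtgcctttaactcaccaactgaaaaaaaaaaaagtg
Itgav: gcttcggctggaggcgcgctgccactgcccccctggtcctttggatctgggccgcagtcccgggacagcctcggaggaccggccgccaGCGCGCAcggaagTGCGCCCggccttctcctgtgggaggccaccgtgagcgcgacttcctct
Mmp3: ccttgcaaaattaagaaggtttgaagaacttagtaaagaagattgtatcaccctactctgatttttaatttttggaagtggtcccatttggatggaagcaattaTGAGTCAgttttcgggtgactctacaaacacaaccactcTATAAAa

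The promoter table held 66 of the 90 genes, and 7 of the 13 that changed. Motifs were searched on both strands of the 250 bases before the first listed start. The TATA box, searched as TATAAA, was present in 12 of the 66 (18.2%) and in 13.0% of all 27025 promoters. The AP-1 site, TGANTCA, was present in 8 of 66 (12.1%) against 6.87%. The metal response core, searched as TGCACNC and as TGCGCNC, was present in 10 and 13 of 66 (15.2% and 19.7%), against 10.2% and 12.6% of all. The antioxidant response core, TGACNNNGC, was present in 9 of 66 (13.6%) against 10.1%, and the heat shock pair GAANNTTC in 2 of 66 (3.03%) against 6.78%. The GC box, GGGCGG, was present in 29 of 66 (43.9%) against 32.9% and the CCAAT box, CCAAT, in 14 of 66 (21.2%) against 34.5%. In Lamb2 0 of these motifs was found in the window. These are matches of letters, and binding was not measured.

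The median signals of the arrays differed little. The median signal over all genes was 4.13 to 4.14 on control and 4.17 to 4.18 on cadmium arrays, a difference of 0.040 (exact permutation p = 0.1, two-sided, the smallest that 3 against 3 allows). The background bound used below is the 95th percentile of 5222 negative control probes, which averaged 6.18 over the arrays. The sources used here do not say whether such a probe can be set against the combined value of a gene, so the bound is rough. Of 7 beta cell markers measured of 12 listed 0 reached it in either group and 0 passed by limma, 1 at an unadjusted p under 0.05. Such a p was found in 5494 of all 18972 genes. Ins2 was at 5.27 ± 0.10 and 5.29 ± 0.04, and the 7 markers had a median level of 3.96, against 4.16 over all genes. The labelled cell type was thus not borne out at this bound. Since 16505 of all 18972 genes had both means below the bound, these markers do not settle the cell type. The first principal component held 61.2% of the variance and separated the control arrays (-18.7 to -13.49) from the cadmium arrays (13.18 to 18.45). On the second principal component, which held 15.6% of the variance, control replicate 3 and cadmium replicate 1 lay far from the other 4 arrays.

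With cadmium, the collagen gene Col3a1 and the tenascin gene Tnc fell most of the 90 genes, 2.01-fold and 2.00-fold. The laminin chain genes Lamc1 and Lamb2 and the integrin gene Itgav fell by less, as did Itgb1bp2 and Loxl3. The genes that rose, Loxl1, Fn1, Mmp3, Postn, Mmp9 and Mmp21, all had signals below the bound. Of the 90 genes 13 passed limma at an adjusted p under 0.05 (14.4%), 6 higher and 7 lower, against 12.2% of all 18972 genes, so the share called is near the background. With each array centred on its median the calls were 3 higher and 9 lower, and after quantile normalization 3 and 6. Leaving out control replicate 1 or 2 took the count of 13 to 7 or 5, and leaving out cadmium replicate 2 or 3 took it to 8 or 6. The median change was 0.07 over the 90 genes and 0.04 over all genes. The groups did not overlap in 49 of the 90, against 35.9% of all genes. In 37 every cadmium array was higher (41.1%, against 22.9%) and in 12 lower, against 13%. With arrays centred the counts were 28 and 13, against 15.1% and 18.4% of all genes. Fewer cells of a type and less RNA per cell cannot be told apart in such bulk samples.

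Both group means lay at or above the bound in 8 of the 90 genes, Col3a1, Col5a2, Col12a1, Tnc, Lama5, Lamb2, Lamc1 and Itgb1. Counts over these 8 genes were chosen after their values were seen. Each had a change below 0, from -1.01 to -0.04, with a median of -0.32. The sign of Col12a1 turned without control replicate 1, control replicate 2 or cadmium replicate 1. Of all 2003 genes with both means above the bound 815 had a change below 0. Of the 8 genes 4 passed the test as lower and 0 as higher, and in 6 every cadmium array lay below every control array. Among all 2003 genes with both means above the bound 25.6% passed in either direction, 9.79% as lower and 15.8% as higher, the groups did not overlap downward in 17.3%, and the median change was 0.05. Without control replicate 1, control replicate 2 or cadmium replicate 3 the count of 4 fell to 2 each time, Col3a1 and Tnc. In the 81 genes with both means below the bound the median change was 0.09, with 6 higher and 3 lower, where all genes so dim had 4.96% higher and 4.45% lower.

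**Figure D1:**
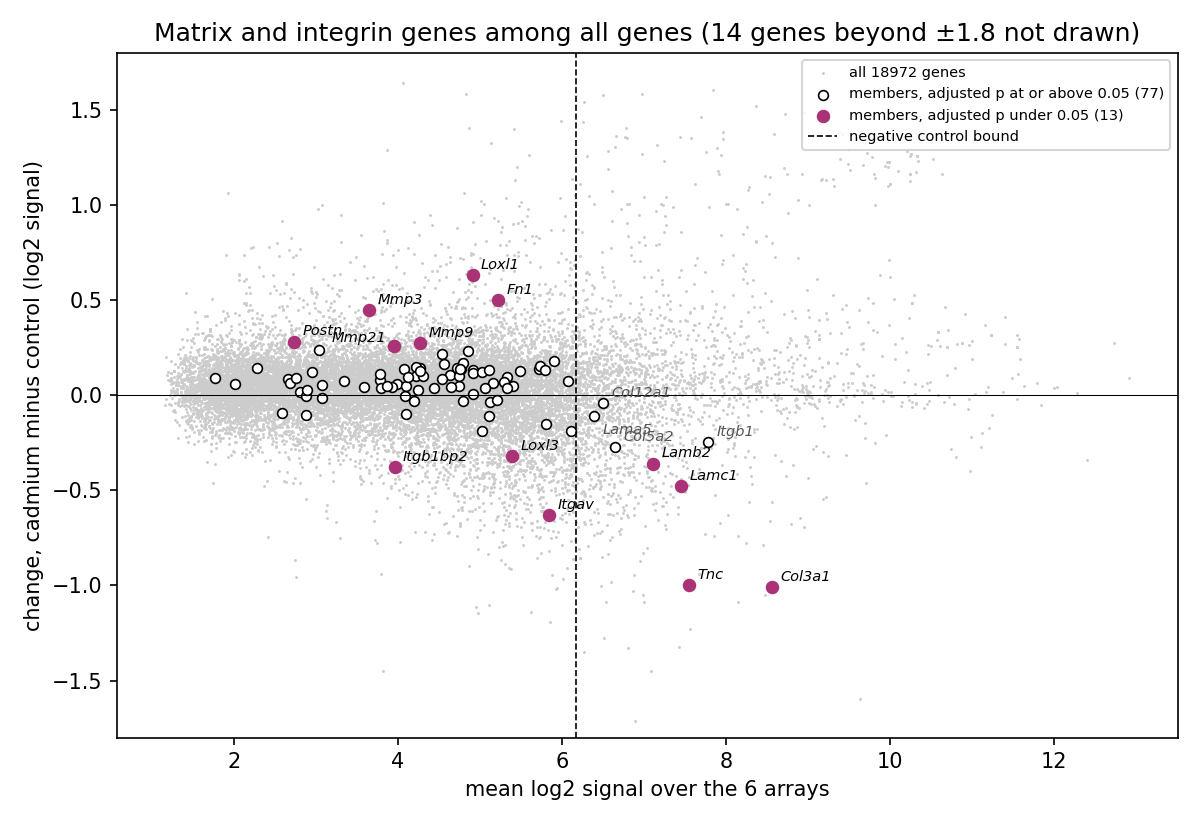
Change with cadmium (vertical axis, log2 signal, cadmium minus control) against the mean log2 signal over the 6 arrays (horizontal axis) for all 18972 genes in grey, of which 14 beyond 1.8 in size are not drawn, and the 90 matrix and integrin genes as circles. Filled circles mark the 13 genes with an adjusted p under 0.05. The called genes right of the bound of 6.18, Col3a1, Tnc, Lamc1 and Lamb2, lie below 0, and the 6 higher ones lie left of it.

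Among the 31 collagens Col3a1 was the gene that passed the test (3.23%, against 12.2% of all genes). Without control replicate 3 the count was 3, with Col5a2 and Col16a1. Col3a1 encodes the chain of type III collagen, a fibrillar collagen of vessels and soft tissue. Its log2 signal was 8.94, 9.06 and 9.20 on the control arrays and 7.87, 8.21 and 8.10 on the cadmium arrays. Every cadmium array lay below every control array, by more than the spread within either group. The change of -1.01 ± 0.10 (SE) is a 2.01-fold lower signal (limma adjusted p = 0.00183). The call held under each of the 15 alternatives run for this gene, at adjusted p of up to 0.0131.

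Col5a2, the neighbour of Col3a1 on chromosome 1, encodes a chain of type V collagen, which helps to start fibrils. Its signal was 6.87, 6.93 and 6.54 in control and 6.34, 6.62 and 6.56 in cadmium arrays. The groups overlapped, since control replicate 3 lay below cadmium replicates 2 and 3. The change was -0.27 ± 0.12 (SE) and did not pass (limma adjusted p = 0.182). Without control replicate 3 it was -0.39 and passed, at an adjusted p of 0.0466, and without control replicate 3 and cadmium replicate 1 it was -0.31, at 0.0276.

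Col12a1, a collagen that binds to the surface of fibrils, stood at 6.74, 6.87 and 5.95 in control and at 6.05, 6.70 and 6.69 in cadmium arrays. Control replicate 3 and cadmium replicate 1, the arrays that stood apart, were the low ones, and the remaining 4 were close together. The change of -0.04 ± 0.27 (SE) was within that spread (limma adjusted p = 0.939), and its sign turned without control replicate 1, control replicate 2 or cadmium replicate 1. Col16a1, of the collagens that associate with fibrils, had 6.20 ± 0.07 in control and 6.01 ± 0.02 in cadmium arrays, with every cadmium array lower. It did not pass (limma adjusted p = 0.0693) but did with arrays centred, at an adjusted p of 0.0349. Col1a2, a chain of type I collagen, was at 5.14 ± 0.04 and 5.11 ± 0.04.

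The remaining collagens lay below the bound and differed by small amounts. Of the 27 collagen genes with both means below it 25 had a change above 0, or 24 with arrays centred, with a median of 0.10 and a range of -0.04 to 0.18. Over all 18972 genes 11878 had a change above 0, or 9724 with arrays centred. By limma 0 of the 27 passed after adjustment, and 12, all higher, had an unadjusted p under 0.05. Of all 18972 genes 5494 had such a p, 3343 of them higher. In 19 of the 31 collagens (61.3%) every cadmium array lay above every control array, against 22.9% of all genes. With arrays centred the count was 15 of 31 (48.4%), against 15.1% of all genes. These 19 changes lay between 0.05 and 0.17, and the lowest adjusted p among them was 0.0772, so none of the 19 is called.

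Of the chains of types IV, V, VI and IX, which assemble among themselves, 0 passed. Col4a1 and Col4a2, neighbours on chromosome 8 that encode the main basement membrane collagen, had changes of 0.07 ± 0.05 (SE) and 0.13 ± 0.05 (SE). Col4a3 and Col4a4, also neighbours, had changes of 0.04 and 0.07, and Col4a5 and Col4a6 of 0.03 and 0.05. The chains of type IX collagen, Col9a1, Col9a2 and Col9a3, had changes of 0.14, 0.13 and 0.13. Of type VI collagen, a beaded filament around cells, Col6a3 was at 4.71 ± 0.04 and 4.88 ± 0.04 and Col6a5 at 4.48 ± 0.02 and 4.64 ± 0.05. Col5a1 and Col5a3 had changes of 0.18 and 0.16, where Col5a2 had -0.27.

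**Figure D2:**
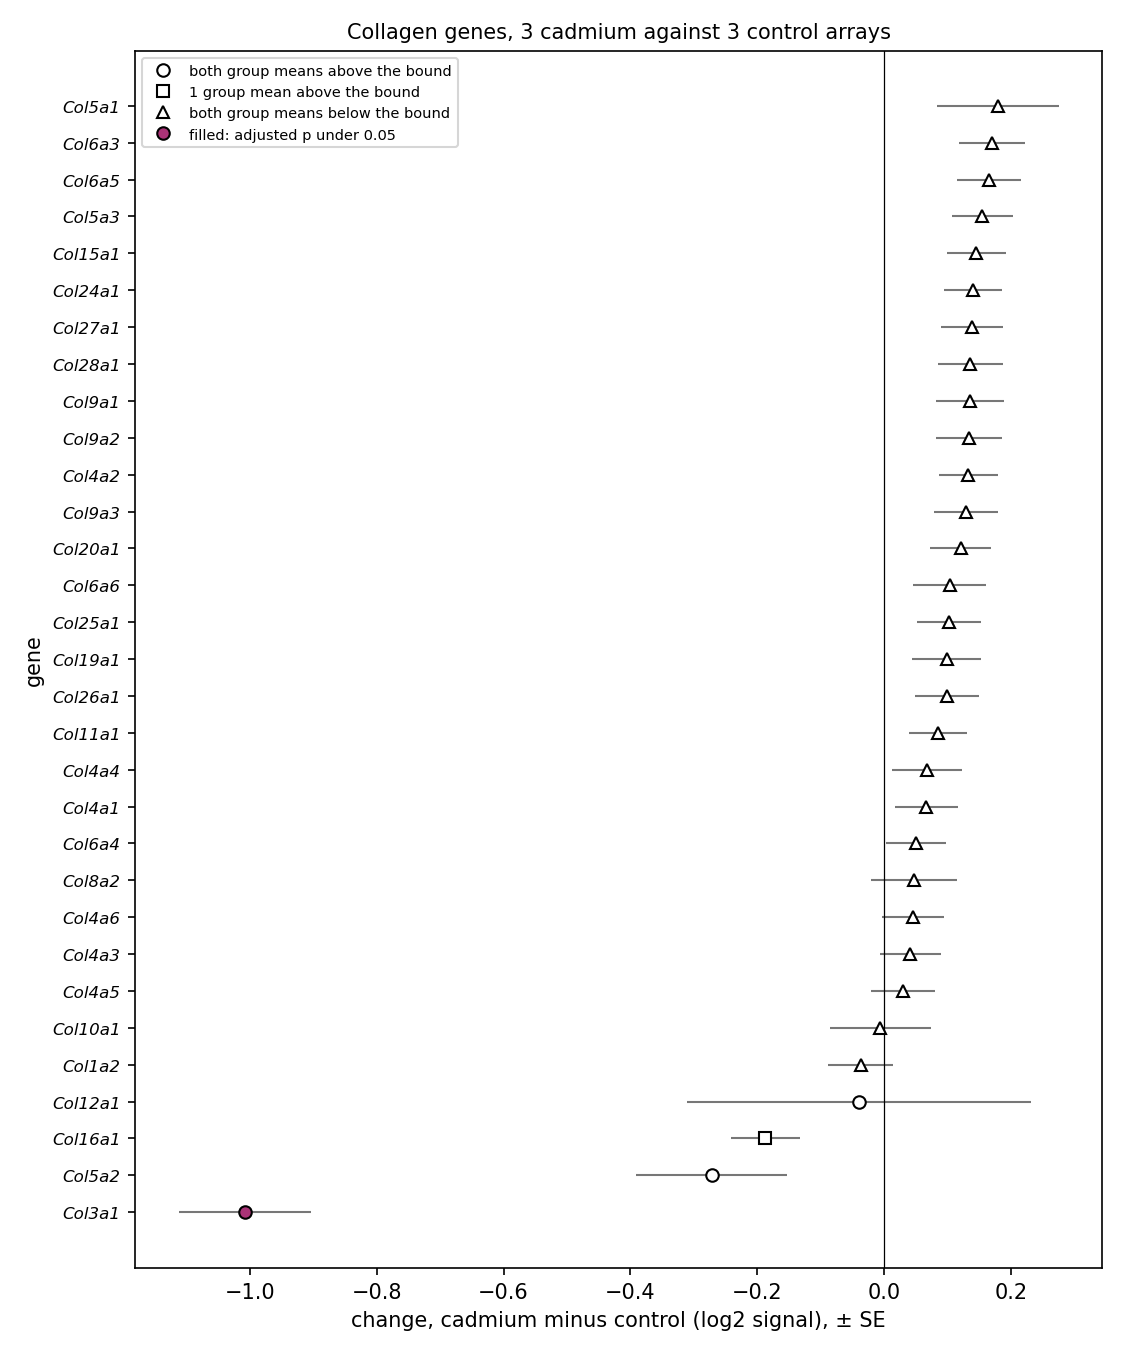
Change with cadmium (horizontal axis, log2 signal, cadmium minus control, with the SE of the fit as bars) for the 31 collagen genes. Circles have both group means above the background bound, the square 1, and triangles 0, and the filled point passed the test. Col3a1 stands at -1.01, and the triangles lie between -0.04 and 0.18.

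Of the glycoproteins and proteoglycans, Tnc fell and Fn1 and Postn rose. Tnc encodes tenascin C, a matrix protein of development and wound repair that binds fibronectin and integrins. Its signal was 8.02, 8.08 and 8.04 in control and 6.98, 7.09 and 7.08 in cadmium arrays. The arrays of each group lay close together, and the groups were far apart. The change of -0.999 ± 0.05 (SE) is a 2.00-fold lower signal (limma adjusted p = 0.000848), and the call held under each of 15 alternatives, at adjusted p of up to 0.0103.

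Fn1 encodes fibronectin, which links integrins to collagen. Its signal rose from 5.03, 5.02 and 4.89 to 5.61, 5.45 and 5.38. All arrays were below the bound, so no fold is given, but the groups did not overlap. The change was 0.50 ± 0.08 (SE) (limma adjusted p = 0.0075). The call held under each of 14 alternatives but was lost with a minimum log2 change of 0.26. Postn, periostin, went from 2.59 ± 0.11 to 2.87 ± 0.05 (limma adjusted p = 0.0375), a call lost without any 1 array other than control replicate 1 and with arrays centred. Bgn, the proteoglycan biglycan, was at 5.88 ± 0.20 and 5.73 ± 0.25 and did not pass.

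Of the 6 laminin genes 2 fell and 0 rose, against 5.72% lower among all genes. Lamc1, the gamma chain of most laminins, had signals of 7.73, 7.78 and 7.57 in control and 7.04, 7.32 and 7.29 in cadmium arrays. Lamb2, a beta chain of basement membranes around vessels and at synapses, had 7.28, 7.40 and 7.20 against 6.82, 7.04 and 6.94. In both genes every cadmium array was lower, with cadmium replicate 1 the lowest. Lamc1 fell by 0.48 ± 0.09 (SE), a 1.39-fold lower signal (limma adjusted p = 0.0184), and Lamb2 fell by 0.36 ± 0.08 (SE), a 1.28-fold lower signal (limma adjusted p = 0.0284). The calls are less firm than those of Col3a1 and Tnc. That of Lamc1 was lost without control replicate 1 or 2 or cadmium replicate 3, with adjusted p of up to 0.0728. That of Lamb2 was lost without the same 3 arrays or without cadmium replicate 1, at up to 0.0966.

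Lama5, the alpha chain that forms a trimer with Lamb2 and Lamc1, was at 6.44, 6.47 and 6.43 in control and 6.32, 6.39 and 6.31 in cadmium arrays. Every cadmium array was lower, but the change of -0.11 ± 0.05 (SE) did not pass (limma adjusted p = 0.207). Lamb3, Lamc3 and Lama4, below the bound, had changes of -0.03, 0.04 and 0.05.

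**Figure D3:**
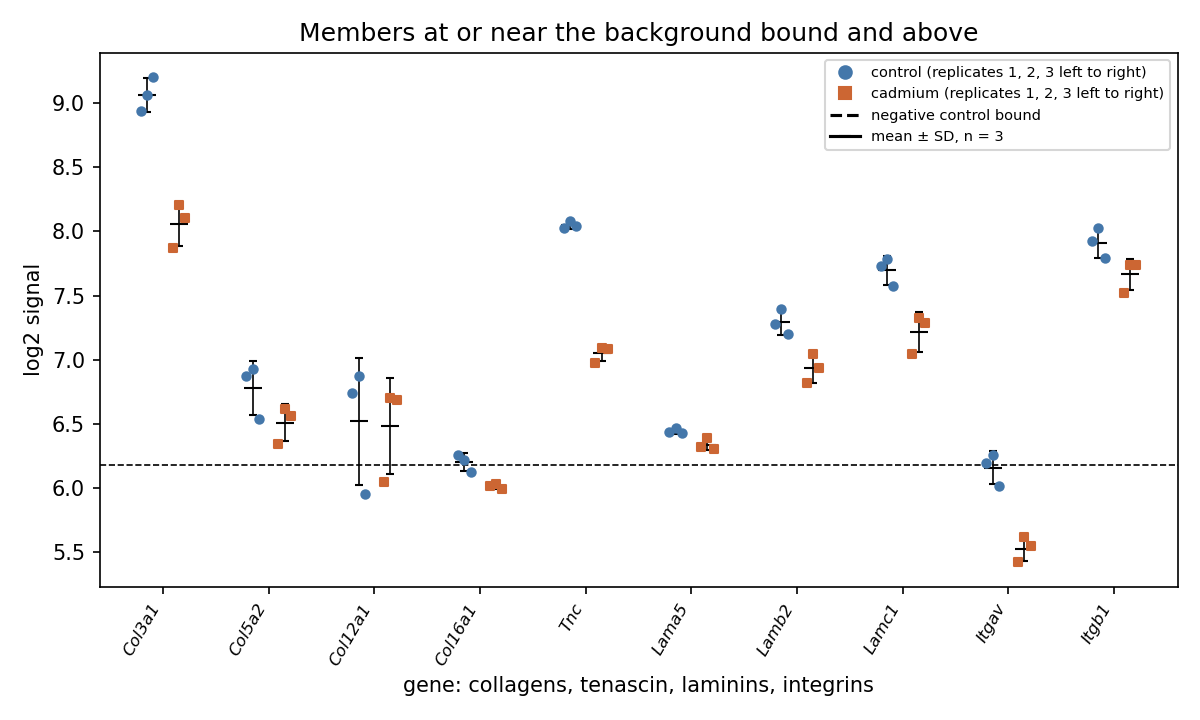
Log2 signal on each array for the 8 genes with both group means above the background bound (dashed line, 6.18), with Col16a1 and Itgav beside it. Circles are control and squares cadmium arrays in the order of replicates 1 to 3, and bars give mean ± SD with n = 3. In Col3a1 and Tnc the groups are far apart, and in Col12a1 control replicate 3 and cadmium replicate 1 lie below the other 4 arrays.

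Among the 11 integrin alpha genes Itgav fell (9.09%, against 5.72% of all genes) and 0 rose (against 6.47%). Itgav encodes the alpha chain of receptors for fibronectin, vitronectin and other ligands with an RGD motif. Its signal was 6.20, 6.26 and 6.01 in control and 5.42, 5.62 and 5.55 in cadmium arrays. Of the control arrays 1 was above its own bound and of the cadmium arrays 0, so no fold is given. The groups did not overlap, and the change was -0.63 ± 0.08 (SE) (limma adjusted p = 0.00438). The call held under each of 14 alternatives but was lost with a minimum log2 change of 0.26.

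Itgb1, the beta chain with the most alpha partners, Itgav among them, was well above the bound. It stood at 7.92, 8.02 and 7.79 in control and at 7.52, 7.74 and 7.74 in cadmium arrays. Each cadmium array was lower, but control replicate 3 lay only just above cadmium replicates 2 and 3. The change of -0.25 ± 0.09 (SE), 1.19-fold, did not pass (limma adjusted p = 0.108), nor did it under any of 15 alternatives, where the lowest adjusted p was 0.0583. The other 10 alpha genes had changes between 0.03 and 0.13, of which 7 were above 0 with arrays centred, and 0 passed. They include Itga6, the partner of Itgb1 in a laminin receptor, at 3.72 ± 0.14 and 3.83 ± 0.04, and the leukocyte genes Itgal, Itgam, Itgax and Itgad, with changes of 0.10, 0.05, 0.04 and 0.05. Itgb1bp2, melusin of muscle, which binds the tail of the Itgb1 chain, fell from 4.15 ± 0.08 to 3.77 ± 0.09 (limma adjusted p = 0.0154), a call lost without control replicate 2 or cadmium replicate 2. Itgb6 and Itgb3bp did not pass.

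The lysyl oxidase-like genes moved in opposite directions. Loxl1, which cross-links elastin, went from 4.51, 4.69 and 4.59 to 5.16, 5.24 and 5.29. This is the largest increase of the 90 genes, 0.63 ± 0.07 (SE) (limma adjusted p = 0.00189), below the bound in both groups and called under each of 14 alternatives. Loxl3, an oxidase active on collagen, went from 5.56, 5.68 and 5.40 to 5.15, 5.30 and 5.24 (limma adjusted p = 0.0488). The groups did not overlap, but the call was lost without any 1 array other than control replicate 3 and after quantile normalization.

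Of the 17 Mmp genes 3 rose and 0 fell (17.6% higher, against 6.47% of all genes). A change above 0 was found in 15, also with arrays centred, and the median was 0.12. Of all 18972 genes 11878 had a change above 0, or 9724 with arrays centred, and the median was 0.04. In 9 of the 17 every cadmium array lay above every control array (52.9%, against 22.9% of all genes), and with arrays centred in 6 (35.3%, against 15.1%). The entire family lay below the bound. Mmp9, a gelatinase, went from 4.13, 4.20 and 4.08 to 4.49, 4.38 and 4.37 (limma adjusted p = 0.0265). Mmp3, stromelysin, which cuts many matrix proteins and activates other Mmp enzymes, had 3.59, 3.32 and 3.37 against 3.92, 3.65 and 4.04 (limma adjusted p = 0.0496). Mmp21 had 3.90, 3.85 and 3.71 against 4.05, 4.11 and 4.08 (limma adjusted p = 0.0403). The groups did not overlap in any of the 3 genes. None of these calls is firm: those of Mmp9 and Mmp21 were lost without any 1 of the 6 arrays, and that of Mmp3 without any 1 other than cadmium replicate 2. Those of Mmp3 and Mmp21 were also lost with arrays centred, at adjusted p of 0.0680 and 0.0649.

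On chromosome 9, 10 of the Mmp genes are neighbours in the RefSeq annotation, from Mmp13 to Mmp7. Of this cluster Mmp3 alone passed, the changes lay between -0.09 and 0.45 and the median was 0.08. Mmp2, the other gelatinase, was at 4.21 ± 0.01 and 4.33 ± 0.05 and did not pass. Mmp17 and Mmp24, which are anchored in the membrane, had changes of 0.12 and 0.23 and did not pass.

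Of the 13 Adamts and Adamts-like genes 0 passed by limma, against 12.2% of all genes. An unadjusted p under 0.05 was found in 3 of the 13 and in 5494 of all 18972 genes. The changes of the 13 lay between -0.19 and 0.15 with a median of 0.02, near the 0.04 of all genes. Adamts17 was at 5.12 ± 0.07 and 4.94 ± 0.03 (limma adjusted p = 0.0684) and passed with arrays centred and without control replicate 3. Adamtsl4 was at 6.04 ± 0.09 and 6.11 ± 0.04. Of the inhibitors, Timp1 had signals of 4.49, 4.32 and 4.47 in control and 4.63, 4.68 and 4.62 in cadmium arrays. Each cadmium array was higher, but the change of 0.22 ± 0.06 (SE) did not pass (limma adjusted p = 0.0644). Timp4 was at 4.21 ± 0.06 and 4.18 ± 0.05.

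**Figure D4:**
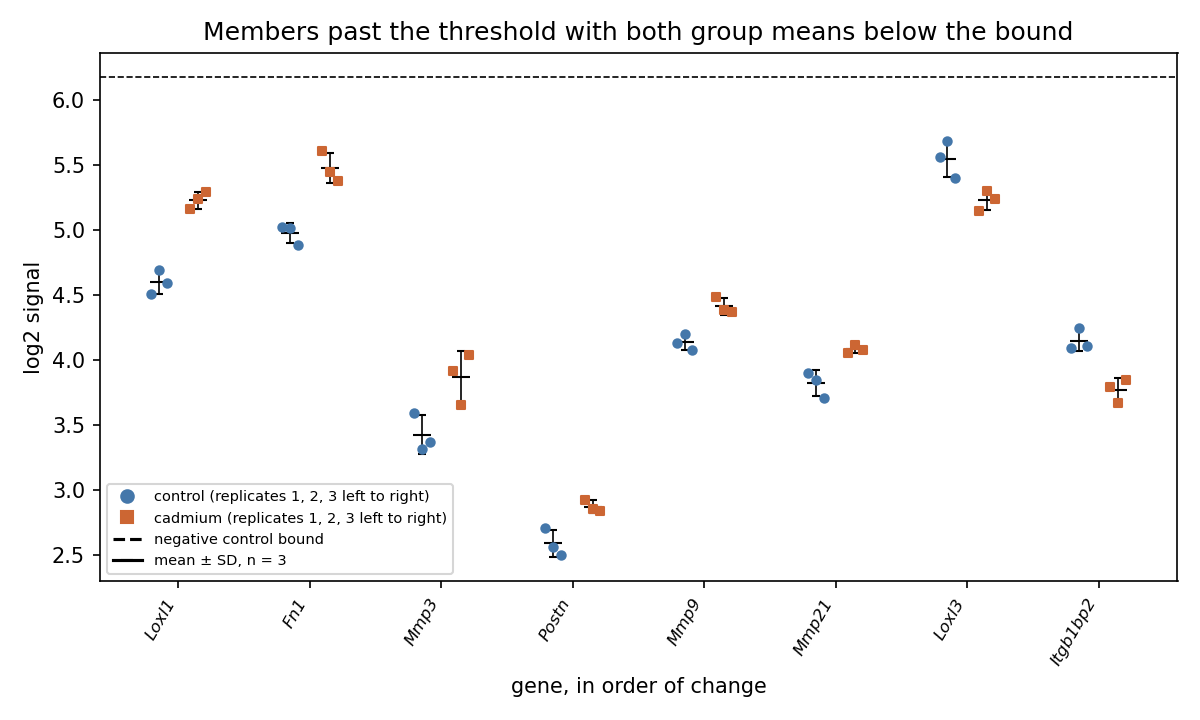
Log2 signal on each array for 8 of the 9 genes that passed the test with both group means below the background bound (dashed line, 6.18), all but Itgav. Circles are control and squares cadmium arrays in the order of replicates 1 to 3, and bars give mean ± SD with n = 3. The groups are farthest apart in Loxl1 and Fn1, and Mmp3 has the widest spread among the cadmium arrays.

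Collagen chains are hydroxylated, glycosylated and folded in the endoplasmic reticulum before they leave the cell. Of 17 genes of collagen processing and secretion measured of 24 listed 8 fell (47.1%) and 0 rose, against 5.72% lower and 6.47% higher among all genes. The median change was -0.32. This list and those below were chosen with earlier results of these data known. In 6 of the 17 both means lay above the bound, and of these Colgalt1, P4ha1 and Pcolce2 fell. Of all genes so bright 9.79% were lower. Plod1 and Plod2 hydroxylate the lysines of collagen that later carry cross-links. Plod1 had signals of 6.70, 6.71 and 6.69 in control and 5.95, 6.10 and 6.01 in cadmium arrays, at least a 1.45-fold lower level (limma adjusted p = 0.00149). Plod2 went from 5.80, 6.06 and 5.55 to 4.73, 4.97 and 5.00, below the bound in both groups (limma adjusted p = 0.0067). In both the cadmium arrays were all lower than the control arrays.

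Colgalt1, which adds galactose to hydroxylysine, went from 7.04 ± 0.10 to 6.40 ± 0.14, a 1.56-fold lower signal (limma adjusted p = 0.00471). P3h1 and Crtap, partners in a complex that hydroxylates prolines, fell by 0.48 ± 0.05 (SE) and 0.45 ± 0.09 (SE), both below the bound (limma adjusted p = 0.00183 and 0.0176). P4ha1, a catalytic subunit of the enzyme that makes the hydroxyproline needed for a stable helix, was 1.25-fold lower (limma adjusted p = 0.0307). Pcolce2, which aids removal of the carboxyl propeptide, was 1.52-fold lower (limma adjusted p = 0.0429). Mia3, which loads procollagen into transport carriers, fell from 5.67 ± 0.09 to 5.06 ± 0.05, below the bound (limma adjusted p = 0.00183).

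Plod1, Plod2, Colgalt1, P3h1 and Mia3 kept their calls without any 1 array, whereas those of Crtap, P4ha1 and Pcolce2 were lost without control replicate 1, among others. The count of 8 that fell was 5 without control replicate 1, control replicate 2, cadmium replicate 2 or cadmium replicate 3, and 9 without both arrays that stood apart, where 1 gene, Serpinh1, rose. Serpinh1, the collagen chaperone, which is also a heat shock gene, differed upward, at 6.14 ± 0.12 and 6.57 ± 0.27, and did not pass (limma adjusted p = 0.0839). Without cadmium replicate 1 it passed, at an adjusted p of 0.00999. With all 6 arrays Serpinh1 passed as higher when each gene's probes were averaged and with array weights. Ppib, a prolyl isomerase of the same complex as P3h1, was at 8.47 ± 0.02 and 8.29 ± 0.04 (limma adjusted p = 0.0603).

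**Figure D5:**
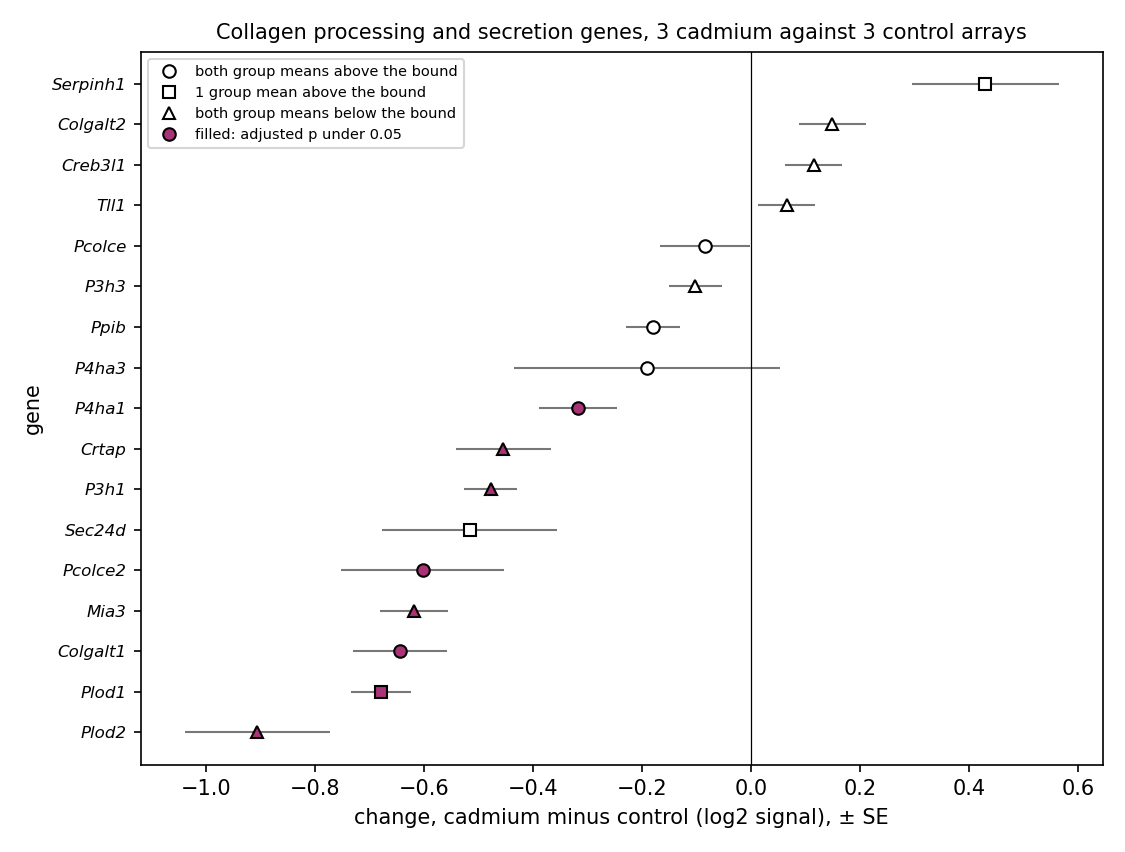
Change with cadmium (horizontal axis, log2 signal, cadmium minus control, with the SE of the fit as bars) for 17 genes of collagen processing and secretion. Circles have both group means above the background bound, squares 1 and triangles 0, and filled points passed the test. The 8 filled points lie between -0.91 and -0.32, and Serpinh1 stands at 0.43.

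Of 14 other matrix and basement membrane proteins measured of 35 listed 1 rose and 2 fell (7.14% and 14.3%), against 6.47% higher and 5.72% lower among all genes. Fmod, fibromodulin, which binds collagen fibrils, was 1.26-fold lower, at 7.64 ± 0.04 and 7.30 ± 0.05 (limma adjusted p = 0.00843). Emilin1, of elastic fibres, fell from 6.17 ± 0.08 to 5.80 ± 0.04, below the bound (limma adjusted p = 0.00923). Thbs1, thrombospondin, had signals of 6.00, 5.81 and 6.18 in control and 6.85, 8.70 and 8.68 in cadmium arrays. Cadmium replicate 1 lay between the control arrays and the other cadmium arrays. The signal was at least 3.67-fold higher (limma adjusted p = 0.0311), with a call lost without any 1 array other than cadmium replicate 1. Hspg2, the basement membrane proteoglycan perlecan, was at 7.24 ± 0.22 and 7.05 ± 0.31 and did not pass.

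Of 10 other proteases and inhibitors measured of 19 listed 2 fell (20.0%) and 0 rose, against 5.72% lower and 6.47% higher among all genes. Adam10, a sheddase of membrane proteins, had signals of 9.22, 9.29 and 8.51 in control and 7.83, 7.99 and 8.05 in cadmium arrays. Control replicate 3 lay between the other controls and the cadmium arrays. Its signal was 2.07-fold lower (limma adjusted p = 0.0166), and the call was lost when control replicate 1 or 2 or cadmium replicate 2 or 3 was left out, with adjusted p of up to 0.0628. Reck, a membrane-anchored inhibitor of Mmp enzymes, fell from 5.30 ± 0.14 to 4.81 ± 0.04, below the bound (limma adjusted p = 0.00852).

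On the inside of the cell, 16 genes of focal adhesions and integrin signalling were measured of 25 listed. Of these 3 rose (18.8%) and 0 fell, against 6.47% higher and 5.72% lower among all genes. Both means lay above the bound in 9 of the 16, of which Tns1 rose. Of all genes so bright 15.8% were higher. Lims1, an adaptor of integrin-linked kinase, rose from 5.09 ± 0.09 to 5.74 ± 0.13, below the bound (limma adjusted p = 0.00373). Zyx, zyxin of focal adhesions, was at least 1.20-fold higher (limma adjusted p = 0.0194). Tns1, tensin, was 1.29-fold higher (limma adjusted p = 0.0333). Both lost their calls without control replicate 1, among others. Of 9 genes of TGF-beta signalling measured of 17 listed, a pathway that induces matrix genes, the receptor gene Tgfbr1 fell (11.1%, against 5.72% of all genes), from 5.36 ± 0.05 to 5.08 ± 0.10 (limma adjusted p = 0.0338), a call lost without any 1 of the 6 arrays.

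Markers of cells that make matrix were dim on all arrays. Of 6 fibroblast and stellate cell markers measured of 10 listed, Vim, Des, Fap, S100a4, Thy1 and Rgs5, 0 reached the bound and 0 passed by limma, with 1 at an unadjusted p under 0.05. Of 6 endothelial markers measured of 7 listed, Cdh5, Kdr, Tek, Eng, Emcn and Vwf, likewise 0 reached it and 0 passed, with 2 at an unadjusted p under 0.05. Such a p was found in 5494 of all 18972 genes. In 4 of the 6 endothelial markers every cadmium array lay above every control array (66.7%, against 22.9% of all genes), and with arrays centred in 3 (50%, against 15.1%). Kdr, the brightest of the 6, had a change of -0.27 with groups that overlapped, and the other 5 had changes above 0. The fibroblast markers' summed log2 signal was 25.1 to 25.7 on control and 24.9 to 26.4 on cadmium arrays, with cadmium replicate 1 the lowest array. That of the endothelial markers was 23.8 to 24.1 and 23.9 to 24.7. Of 2 macrophage and leukocyte markers of 7 listed, 3 acinar of 5 and 2 other islet cell markers of 5, 0 reached the bound and 0 passed, with 1 acinar marker at an unadjusted p under 0.05. Their summed signals were 6.12 to 6.15 and 6.07 to 6.21, 12.1 to 12.4 and 12.3 to 12.7, and 7.10 to 7.21 and 7.02 to 7.12. Of 4 duct markers 0 were measured. The part of these markers in the matrix results was not tested.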

How the data were processed

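RNA of 6 cultures, 3 per group, was measured on 1-colour arrays (biotin label, per the labels), and the authors deposited 1 log2 value per probe and array. The sources used here name no background correction or normalization, and the log base was taken from the range of the values. The table held 39746 transcript clusters and 6732 control probes. GEO's annotation, updated through RefSeq GRCm38.p6, gave 19205 clusters 1 gene (14012 by gene identifier, 4974 by symbol, 217 by synonym, 2 kept as given), 940 several and 19601 none. The brightest probe stood for each of 18972 genes. All genes were fitted with limma 3.58.1 (R 4.3.3; lmFit and eBayes, Benjamini-Hochberg adjustment, threshold 0.05). The fit was also run on simulated data with planted changes and independent noise, and no result of that run is given here. Folds are given where both group means reach the bound, and are minima where 1 does.

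Genes named were taken from those past the threshold, the 2 brightest of each family, fixed symbols and chain partners. In other lists they were taken from the 4 lowest adjusted p and 2 brightest. Some genes under these rules that did not pass are left out, such as Adamts7, Itga11, P4ha3, Npnt, Htra1, Actn4 and Parva. Further genes were named after their values were seen. Members and lists were chosen with earlier results of these data known. Alternatives covered scaling, filters, probe choice, variance model, array weights, a replicate block, thresholds and leaving out arrays. Figures used matplotlib 3.10.9.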

Additional observations from a re-analysis of the deposited data

How the results depend on the processing

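Of the 13 called genes, Col3a1, Tnc and Loxl1 kept their direction and call under every alternative run for them. Itgav and Fn1 lost their calls with a minimum log2 change of 0.26 and kept them under every other alternative run for them. Counts here are of calls in either direction. The count of 13 was 4 among the 9 genes left by the bound filter, 5 at an adjusted p under 0.01, 3 with a minimum log2 change of 0.26 and 5 to 12 without 1 array (5 without control replicate 2, 6 without cadmium replicate 3, 7 without control replicate 1, 8 without cadmium replicate 2). Over all genes the count of 2313 was 878, 868, 428 and 1142 to 2361 in the same order, over the 66 genes of the other lists 17 became 10, 9, 4 and 9 to 18, and over collagen processing 8 became 5, 5, 3 and 5 to 8. The 4 called genes above the bound were 2, 2 and 2 to 5 under the stricter threshold, the minimum change and without 1 array. Without control replicate 3 and cadmium replicate 1, chosen after seeing the data, the other lists gave 26 and all genes 2894.

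By family, with the reported count in parentheses, collagens (1) gave 2 centred, 4 with the median-level filter and 3 with weights, 2 without both arrays that stood apart, and 1 to 3 without 1 array. Mmp genes (3) gave 1 centred, 1 after quantile normalization, 1 with the median-level filter, 0 with the bound filter, the stricter threshold and the minimum change, and 0 to 2 without 1 array. Lox genes (2) gave 1 after quantile normalization, 0 with the bound filter, 1 with the stricter threshold or minimum change, and 1 to 2 without 1 array. Adamts genes (0) gave 1 centred, with the median-level filter and with weights, and 0 to 1 without 1 array, and Timp genes (0) gave 1 with the median-level filter and with weights. Laminins (2) gave 0 with the stricter threshold and the minimum change and 0 to 2 without 1 array. Integrin alpha (1) gave 0 with the bound filter and the minimum change, integrin beta (1) gave 0 with both filters, the stricter threshold and the minimum change and 0 to 1 without 1 array, and glycoproteins (3) gave 1 with the bound filter and the minimum change. Col12a1 turned from -0.04 to 0.07, 0.13 and 0.18 without control replicate 1, control replicate 2 and cadmium replicate 1, and lay between -0.32 and 0.18 without 1 array. The causes were not tested, except that filters and left-out arrays test fewer genes or arrays.

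With the replicate number as a block the counts were 8 members, 1388 of all genes, 5 for collagen processing, 1 for Mmp, 1 for Lox and 0 for integrin beta. The block takes the replicate numbers of the sample titles, and the control samples carry other numbers in their source names, so the labels do not settle which arrays share a number. By the titles, deviations of same-numbered arrays correlated at -0.108, 0.0566 and -0.108, and 0 of 6 arrays correlated best with their own number. For 81 of the 90 genes both means lay below the bound, so no fold is given.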
